A study of Mus musculus with 2 samples.

Results

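The hepatocyte lineage transcription factors examined here are 8 genes, Hnf4a, Foxa1, Foxa2, Foxa3, Cebpa, Onecut1, Prox1 and Nr5a2, taken as every probe set that the platform annotation maps to one of these symbols alone. They are read by 17 of the 45101 probe sets on the array and are 8 of 18193 named genes. RNA came from the livers of 2 male mice, 3 months old and of the mixed strain 129Sv/C57BL6, taken after an overnight fast. The control group held 1 animal, whose genotype the labels do not spell out, and the Tmprss6-deficient group held 1 animal of genotype Tmprss6-/-, made by gene targeting. Tmprss6 encodes matriptase-2, a hepatocyte membrane protease that restrains hepcidin production. Each genotype has 1 Affymetrix mouse array, so no replicate error or test can be given, and the ratios below describe these 2 animals.

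Hepatocyte identity rests on a set of transcription factors that bind each other's regulatory regions and those of the genes for plasma proteins and metabolic enzymes. HNF4A is a nuclear receptor that occupies a large share of liver promoters, and the FOXA proteins are forkhead factors that open chromatin for other factors. CEBPA is a leucine zipper factor of the mature hepatocyte, ONECUT1 (HNF6) carries a cut domain and a homeodomain, PROX1 is a homeobox factor that also defines lymphatic endothelium, and NR5A2 (LRH-1) is a nuclear receptor known for its control of bile acid genes.

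The start regions of Hnf4a, Foxa2 and Nr5a2 are shown because their values differed most between the animals at the gene level. RefSeq (GRCm38.p6) sequences were found for all 8 genes, with 13 start sites, and the 250 bases before each start were searched on both strands. Both Hnf4a windows are printed, but of 3 Foxa2 windows and 2 Nr5a2 windows only the one that holds a match is, and the others hold none. Capitals mark matches to ATTGAT (the core bound by ONECUT1) in the upstream Hnf4a window and the Foxa2 window printed, and to TTGCNNAA (a core bound by CEBP proteins) in the Nr5a2 window printed, while the downstream Hnf4a window holds no match to the motifs named here.
Hnf4a, upstream start, chr2:163506607-163506856, plus strand: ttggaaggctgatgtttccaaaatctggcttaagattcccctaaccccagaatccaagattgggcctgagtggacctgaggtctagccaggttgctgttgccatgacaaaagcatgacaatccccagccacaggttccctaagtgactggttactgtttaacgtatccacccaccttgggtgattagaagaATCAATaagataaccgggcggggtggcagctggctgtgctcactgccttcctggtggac
Hnf4a, downstream start, chr2:163546905-163547154, plus strand: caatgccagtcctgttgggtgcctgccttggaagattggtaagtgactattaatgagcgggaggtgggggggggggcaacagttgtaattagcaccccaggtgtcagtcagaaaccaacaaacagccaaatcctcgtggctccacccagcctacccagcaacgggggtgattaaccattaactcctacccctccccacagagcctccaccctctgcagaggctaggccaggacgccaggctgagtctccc
Foxa2, most upstream of 3 starts, chr2:148046970-148047219, minus strand: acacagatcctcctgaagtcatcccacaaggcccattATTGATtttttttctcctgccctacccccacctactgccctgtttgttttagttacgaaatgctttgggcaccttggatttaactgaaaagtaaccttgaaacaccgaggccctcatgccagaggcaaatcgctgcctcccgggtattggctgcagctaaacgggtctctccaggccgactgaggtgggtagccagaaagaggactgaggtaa
Nr5a2, downstream start, chr1:136953631-136953880, minus strand: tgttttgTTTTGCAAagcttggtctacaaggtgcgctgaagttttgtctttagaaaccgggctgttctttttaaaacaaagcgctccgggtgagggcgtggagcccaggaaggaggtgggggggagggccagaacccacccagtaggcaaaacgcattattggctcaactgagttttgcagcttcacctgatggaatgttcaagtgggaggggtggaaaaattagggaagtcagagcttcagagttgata
The upstream Hnf4a start is the promoter known from pancreas and fetal liver, and the downstream one is known from adult hepatocytes. The annotation used here does not say which start a probe set reads.

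In these windows, ATTGAT lay in 2 of the 13 windows and in 6.72% of 32851 windows of all genes. TGTTTAC, the core bound by FOXA proteins, lay in 1 of the 13, before Foxa1 itself, and in 3.17% of all. TTGCNNAA lay in 1 of the 13, the Nr5a2 window shown, and in 9.56% of all. CAAAGTC (HNF4A) and AAGGTCA (NR5A2) lay in 0 of the 13 and in 3.84% and 4.08% of all windows. In the upstream Hnf4a window, ATTGAT lies on the complementary strand at bases 192 to 197, and in the Foxa2 window on the strand shown at bases 38 to 43, counted from the window's first base. The motifs do not overlap each other, and a match of letters is a description only. Their spellings were chosen after the windows had been searched, so the shares are no test.

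Both arrays had a trimmed mean signal of 100, over all probe sets without the lowest and highest 2%. A signal of 17.8, the median of all probe sets other than controls, served as the floor for calling a probe set measured, and 22272 probe sets of the control and 22773 of the Tmprss6-deficient array lay at or above it. The targeted gene Tmprss6 read 1868 in control and 88.1 in Tmprss6-deficient liver, in the direction of the labels. The tissue label was borne out by hepatocyte markers, of which all 13 with a probe set lay above the floor on both arrays and within 1.5-fold. Of these, Alb (albumin) read 29345 in control and 27850.5 in Tmprss6-deficient liver, Apoa1 (apolipoprotein A-I) 35972 and 32902, and Ttr (transthyretin) 24521 and 24403. As a measure of error, the SD of log2 ratios among sets that read one gene was used, which holds no variation between animals. It was 0.46 for sets with a mean signal under 64, 0.37 for those up to 256, 0.32 for those up to 1024 and 0.18 for brighter ones.

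Across the 8 factors, Hnf4a and Foxa2 were higher and Nr5a2 was lower in the Tmprss6-deficient liver by 1.5-fold or more, each on its brightest probe set. Foxa1, Foxa3, Cebpa and Prox1 lay within 1.5-fold on that set, and Onecut1 cleared the floor in the control alone. Of all 10243 genes above the floor on both arrays, 7.51% passed that fold upward and 8.42% downward. The median log2 ratio was 0.25 over the 7 factors measured on both arrays and -0.0098 over all such genes, and it was 0.16 with Onecut1 entered at its bound. By probe set, 14 of the 17 lay above the floor on both arrays, of which 8 passed 1.5-fold upward and 1 downward, against 10.0% and 8.07% of all 19894 probe sets so measured. The 8 higher sets belong to 4 genes, Hnf4a, Foxa2, Prox1 and Nr5a2, and sets of 1 gene are not independent of each other. At 2-fold or more, 4 were higher and 1 was lower, against 2.53% and 2.09% of all.

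**Figure D1:**
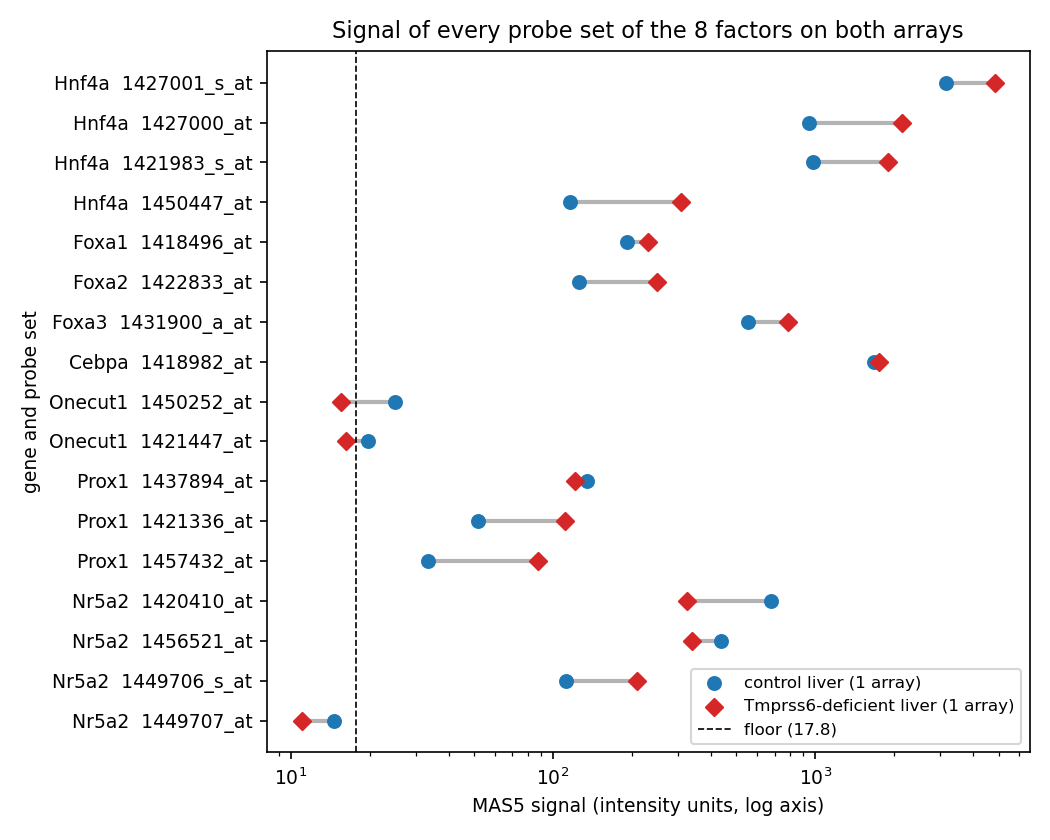
MAS5 signal (log axis) of each of the 17 probe sets of the 8 factors, 1 row per probe set, with the control array as a circle, the Tmprss6-deficient array as a diamond and the floor of 17.8 as a dashed line. All 4 Hnf4a sets were higher on the Tmprss6-deficient array, while the sets of Prox1 and Nr5a2 differed in direction and those of Onecut1 lay at the floor.

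Hnf4a was higher in the Tmprss6-deficient liver on every one of its 4 probe sets. On the brightest, 1427001_s_at, the signal was 3148 in control and 4849.5 in Tmprss6-deficient liver, a log2 ratio of 0.62 (1.54-fold). Set 1427000_at read 945 and 2135 (2.26-fold). Set 1421983_s_at read 979 and 1892 (1.93-fold). The dimmest, 1450447_at, read 116 and 307 (2.64-fold). The direction was thus shared by sets whose signals span more than an order of magnitude, and the fold was smallest on the brightest set. The mean log2 ratio was 1.04 ± 0.33 (SD over 4 probe sets of 1 pair of animals).

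Each Hnf4a set differed by more than the spread among probe sets of a gene at its signal. From the brightest set to the dimmest, the log2 ratio was 3.56, 6.70, 5.42 and 3.84 times that SD. At mean signals above 1024 that SD was 0.18, smaller than the 0.33 among Hnf4a's own 4 sets. Among 1029 genes with mean signals above 1024, 2.915%, Hnf4a included, had a log2 ratio at least that of its brightest set. Among 683 genes with 4 or more measured probe sets, 4 had every set past 1.5-fold upward (0.586%), Hnf4a among them. This rule has the form of Hnf4a's own 4 sets, so the share is a description and not a test. The 4 Hnf4a sets also come in pairs that share a source sequence. The brightest set stood close to the 1.5-fold threshold and fell below it when the arrays were scaled to equal medians, where its log2 ratio was 0.56, while the other 3 sets stayed above it at 0.89 to 1.34. Its suffix, _s_at, marks probes that can match more than 1 transcript, as does that of 1421983_s_at.

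The 3 forkhead genes each had 1 probe set, and all were brighter on the Tmprss6-deficient array by unequal amounts. Foxa2, the form tied to fasting metabolism and bile acid handling, read 126 in control and 249.8 in Tmprss6-deficient liver. Its log2 ratio of 0.99 (1.98-fold) was 2.70 times the spread among probe sets of a gene at that signal. Foxa3, a form of liver and gut endoderm, read 555 and 788, a log2 ratio of 0.51 (1.42-fold) and 1.57 times the spread. Foxa1 read 192 and 229, a log2 ratio of 0.25 (1.19-fold) that was smaller than the spread of 0.37. Among genes with mean signals from 64 to 256, the range of Foxa1 and Foxa2, 7.11% were higher by 1.5-fold or more. With a single set for each gene, no second reading of these ratios is at hand.

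Cebpa, the leucine zipper factor of gluconeogenic and plasma protein genes, was nearly level. Its only set, 1418982_at, read 1679 in control and 1756 in Tmprss6-deficient liver. The log2 ratio of 0.065 (1.05-fold) was smaller than the spread of 0.18 at that signal, and with equal medians it was 0.00062.

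Onecut1 was dim on both sets. Set 1450252_at read 24.9 in control and 15.6 in Tmprss6-deficient liver, and set 1421447_at read 19.7 and 16.2. Only the control signals thus cleared the floor, by little, and against the floor they were at least 1.40-fold and at least 1.11-fold lower. With the floor at the 30th percentile, a signal of 6.8, both were measured and the log2 ratios were -0.67 and -0.28. Cholangiocytes also express ONECUT1 and FOXA2. Of 8 cholangiocyte markers with a probe set, 2 cleared the floor on both arrays and 4 on the control array alone, among them Krt19 (keratin 19) at 49.2 and 15.1. The measured ones were Anxa4 (annexin A4), at 230.0 in control and 265 in Tmprss6-deficient liver with its sets opposed, and Tff3 (trefoil factor 3), at 81.1 and 66.0. The summed signal of the 8, most of it from Anxa4, was 444 in control and 383 in Tmprss6-deficient liver. The part of cholangiocytes in the Onecut1 values was not tested. In whole liver RNA, fewer cells of a type and less RNA per cell cannot be told apart.

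**Figure D2:**
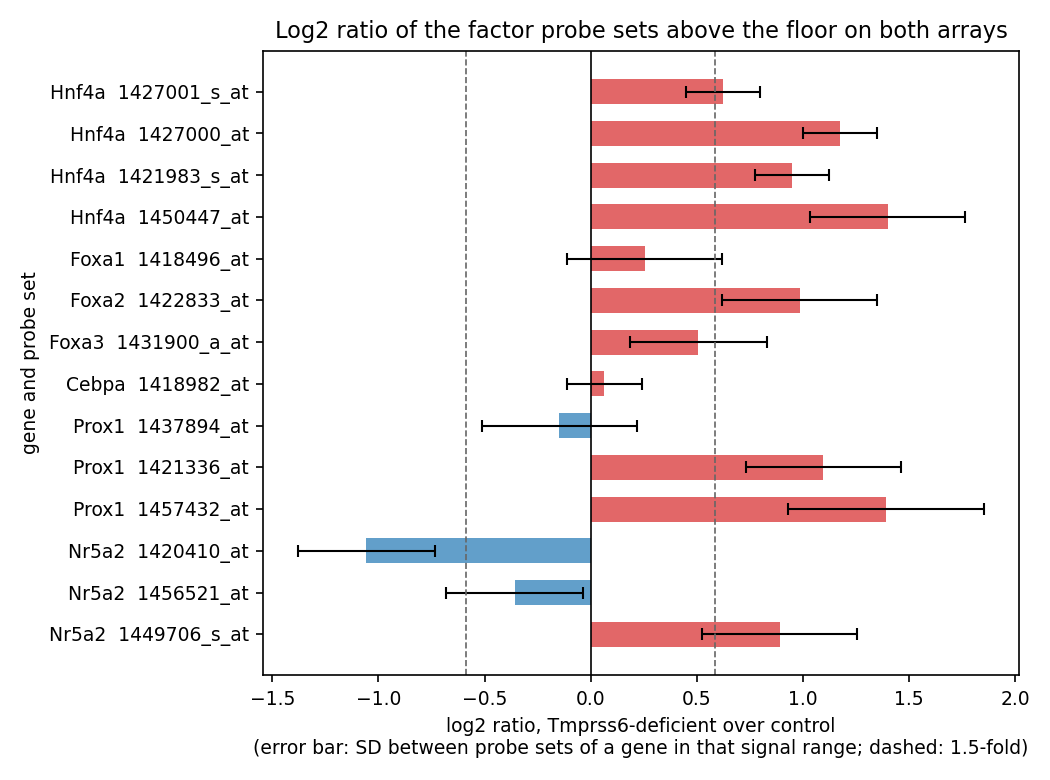
Log2 ratio (Tmprss6-deficient over control) of the 14 probe sets of the factors above the floor on both arrays, 1 bar per probe set. Error bars are the SD between probe sets of a gene at that signal (0.18 to 0.46), not a replicate error, and dashed lines mark 1.5-fold; the 4 Hnf4a bars run from 0.62 to 1.40, and Prox1 and Nr5a2 have bars on both sides of 0.

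The 3 Prox1 probe sets were not of one direction. The brightest, 1437894_at, read 135 in control and 121.5 in Tmprss6-deficient liver, a log2 ratio of -0.15 that was smaller than the spread of 0.37. Set 1421336_at read 51.8 and 111 (2.14-fold higher), and set 1457432_at read 33.5 and 87.9 (2.62-fold higher). Both dimmer sets were thus higher by 3.00 and 3.01 times the spread at their signals, while the brightest was level. Their mean was 0.78 ± 0.82 (SD over 3 probe sets), so the Prox1 reading depends on the probe set used. At mean signals from the floor to 64, 14.8% of all probe sets were higher by 1.5-fold or more, and from 64 to 256 it was 9.05%.

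PROX1 is also the defining factor of lymphatic endothelium, so markers of those cells were read beside it. Of 6 lymphatic markers with a probe set, Prox1 included, 4 cleared the floor on both arrays. Of these, 1 passed 1.5-fold upward and 0 downward, against 7.51% and 8.42% of all genes so measured. The higher gene was Lyve1, a hyaluronan receptor that sinusoidal endothelium also carries. It read 32.3 and 152 on its brighter set and 38 and 96.5 on the other. Flt4 (VEGF receptor 3) read 168 and 176 on its brighter set and 29.3 and 55.2 on the other. Reln (reelin), also listed as a stellate cell marker, read 559 and 574 on its brighter set. Its other set, at 21.5 and 2.7, cleared the floor in the control alone. Pdpn, podoplanin, cleared the floor in the Tmprss6-deficient liver alone (8.90 and 24.4), and Mmrn1, multimerin 1, in the control alone (32.9 and 16.3). The median log2 ratio of the list was 0.053, and 0.64 with the mean of each gene's measured sets, the choice under which Prox1 itself, a member of the list, read 0.78. The summed signal of the 6, Prox1 included and most of it from Reln, was 936 in control and 1064 in Tmprss6-deficient liver. The part of lymphatic cells in the Prox1 values was not tested.

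Nr5a2 was lower on its brighter probe sets and higher on a dimmer one. Set 1420410_at read 677 in control and 325 in Tmprss6-deficient liver, a log2 ratio of -1.06 (2.08-fold lower) and 3.28 times the spread. Set 1456521_at read 436 and 340.2, in the same direction at -0.36, or 1.11 times the spread. Set 1449706_s_at read 112 and 208, the opposite direction at 0.89 (1.85-fold higher) and 2.44 times the spread. The last set, 1449707_at, was below the floor on both arrays (14.6 and 11.0). The brightest set alone thus called the gene lower, and the mean over its 3 measured sets was -0.18 ± 0.99 (SD over 3 probe sets), with no call. The table gives no source accession for the 2 sets numbered 1449706_s_at and 1449707_at. NR5A2 is also abundant in exocrine pancreas, whose markers Cpa1, Cpb1 and Ctrb1 (carboxypeptidases and chymotrypsinogen) were below the floor on both arrays. Of 8 such markers with a probe set, 3 were above the floor on both arrays, namely Cela1 (elastase 1) at 229 and 146, Cela3b at 39.6 and 36.5, and the trypsinogen gene Prss2 at 33.9 and 46.5. Cela2a cleared the floor in the control alone (29.6 and 4.90), and Cel in the Tmprss6-deficient liver alone (15.2 and 23.3). The summed signal of the 8, most of it from Cela1, was 365 in control and 273 in Tmprss6-deficient liver. The part of pancreatic cells in the Nr5a2 values was not tested.

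**Figure D3:**
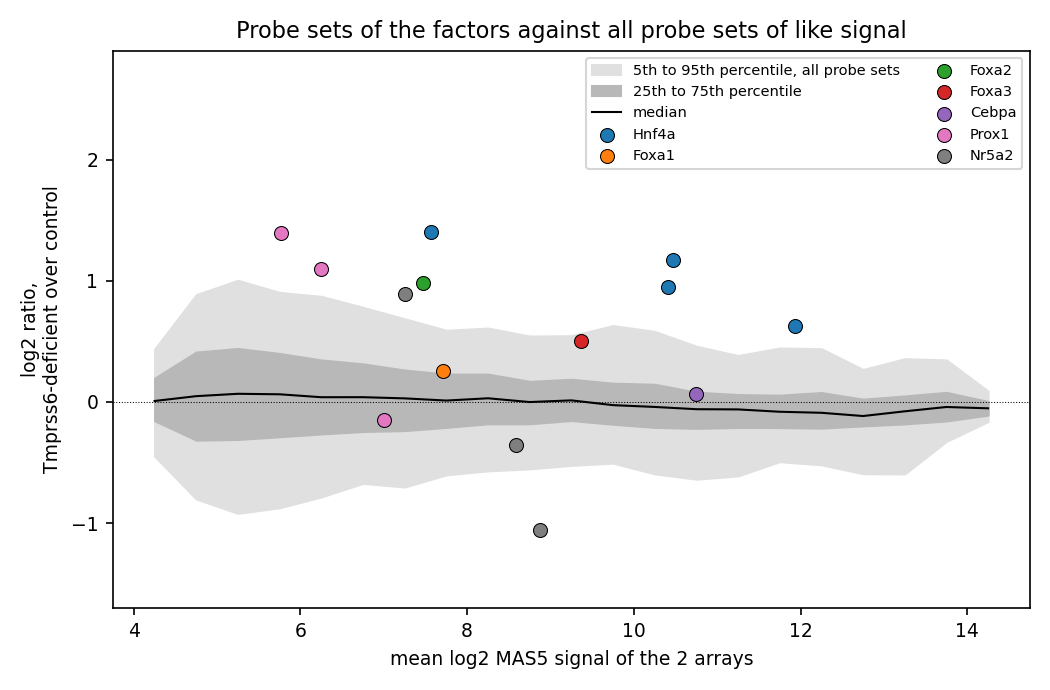
Log2 ratio against mean log2 signal for the 14 probe sets of the factors (coloured by gene), over the range of all probe sets of like signal (light band, 5th to 95th percentile; dark band, 25th to 75th; line, median). Of the 14, 8 lay above the light band (4 of Hnf4a, 2 of Prox1, 1 each of Foxa2 and Nr5a2), 1 of Nr5a2 lay below it, and 5 lay inside it.

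Relatives of the factors from the same gene families were read beside them. Of 17 with a probe set, 10 cleared the floor on both arrays, with a median log2 ratio of -0.047. Of these, 0 differed by 1.5-fold in either direction, against 15.9% of all genes so measured, and 10 genes are few. Cebpb, the leucine zipper factor of the acute phase, read 2231 and 2275 on the brighter of its sets. Onecut2 read 295 and 215, a log2 ratio of -0.46, and was lower on all 3 measured sets. Foxo1, a forkhead factor under insulin control, had a log2 ratio of -0.39, Foxo3 one of -0.45, Cebpg one of 0.39 and Foxp1 one of 0.41, the last with 1 of 8 sets in the opposite direction. Hnf4g, Nr5a1, Onecut3 and Prox2, paralogs of Hnf4a, Nr5a2, Onecut1 and Prox1, were below the floor on both arrays. So were Nr2f1, Foxm1 and Foxj1.

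Other transcription factors known from hepatocytes differed in both directions. Of 27 measured, 7 passed 1.5-fold upward and 4 downward, and their median log2 ratio was 0.077, against the 7.51% and 8.42% of all genes. The higher group held Tead1 (a partner of YAP1, 80.5 and 156), Nfia (nuclear factor I/A, 479 and 886, with all 5 measured sets higher and a set above the floor on 1 array only), and Rora (a nuclear receptor that PROX1 can bind, 349 and 635, with 1 of 6 sets opposed). The lower group held Klf15 (a fasting factor, 1444 and 673) and Srebf1 (the lipogenic factor, 269.5 and 128). Proteins that bind the factors as coregulators were 18 measured genes with a median of -0.086, and 1 passed 1.5-fold upward and 3 downward. Nr0b2 (SHP), a corepressor of HNF4A and NR5A2, was 2.26-fold lower, Tle3, a Groucho corepressor, 1.92-fold lower, and Ncoa1, a nuclear receptor coactivator, 1.51-fold lower. Its relative Ncoa3 was higher by 1.58-fold, though dim (43.7 and 69.1), and the coactivator gene Ppargc1b had a log2 ratio of 0.54.

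Most genes known as targets of the factors lay within 1.5-fold, as did most of all genes. Over 5 target lists, which overlap, 36 genes other than the factors themselves were above the floor on both arrays. Of these, 31 lay within 1.5-fold, 1 was higher and 4 were lower, against 8612, 769 and 862 of all 10243 genes so measured. The median log2 ratio of the targets was -0.12. At mean signals above 1024 lay 29 of them, with 0 higher and 2 lower, against 3.30% and 5.64% of all genes at such signals, and with a median of -0.075 beside -0.051 for those genes. From 256 to 1024 lay 6, with 1 higher and 2 lower, against 3.86% and 4.36% of all genes at such signals. Their median was -0.47 beside -0.00082 for all genes in that range.

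For HNF4A, 18 targets were measured, of which 0 passed 1.5-fold upward and 2 downward, with a median of -0.085. Cyp7a1, which limits the rate of bile acid formation, read 1672 in control and 225 in Tmprss6-deficient liver. G6pc (glucose-6-phosphatase) read 2631 and 1655, a log2 ratio of -0.67. Tat (tyrosine aminotransferase) was at -0.56, Otc (ornithine transcarbamylase) at -0.52 with 1 of 3 sets opposed, and Apoa4 (apolipoprotein A-IV) at 0.54. The median turned to 0.021 with quantile normalization and to 0.00090 with lowess. HNF4A targets thus lay on both sides of 0 in log2 ratio, 7 above and 11 below.

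For the FOXA proteins, 12 targets were measured, 1 higher and 1 lower, with a median of -0.10 that was 0.030 with quantile normalization and 0.026 with lowess. Abcc2, the canalicular exporter of conjugates, was the higher one at 729 and 1144 (1.57-fold), and G6pc the lower. Pck1 (phosphoenolpyruvate carboxykinase) was at -0.38 and Apob at -0.21, the latter with its sets opposed. Afp (alpha-fetoprotein) cleared the floor in the control alone, at 20.9 and 9.60.

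For CEBPA, 11 targets were measured, 0 higher and 2 lower, with a median of -0.32 beside the level signal of Cebpa itself. Besides G6pc, the lower one was Adh1 (alcohol dehydrogenase), at 10586 and 6968 (1.52-fold). Fabp1, the liver fatty acid binding protein, was at -0.38, as was Pck1. Of the 11, 9 had a log2 ratio below 0. The median of the list is the value of Ass1, read on a set that was dim beside the others named here (141 and 113).

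For NR5A2, 10 targets were measured, 0 higher and 2 lower, with a median of -0.27. The lower ones were Cyp7a1 and Nr0b2, the latter at 592 and 261. The sterol transporter genes Abcg5 (633 and 449) and Abcg8 (619.7 and 453) were at -0.50 and -0.45, and the exporter gene Abcc3 at -0.41. Cyp8b1, the sterol 12-alpha-hydroxylase, which HNF4A and NR5A2 both control, was at -0.062 (6412 and 6141). For ONECUT1, 7 listed targets were measured with a median of -0.38, of which Hnf4a and Foxa2 were the 2 higher ones and Cyp7a1 and G6pc the 2 lower ones.

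**Figure D4:**
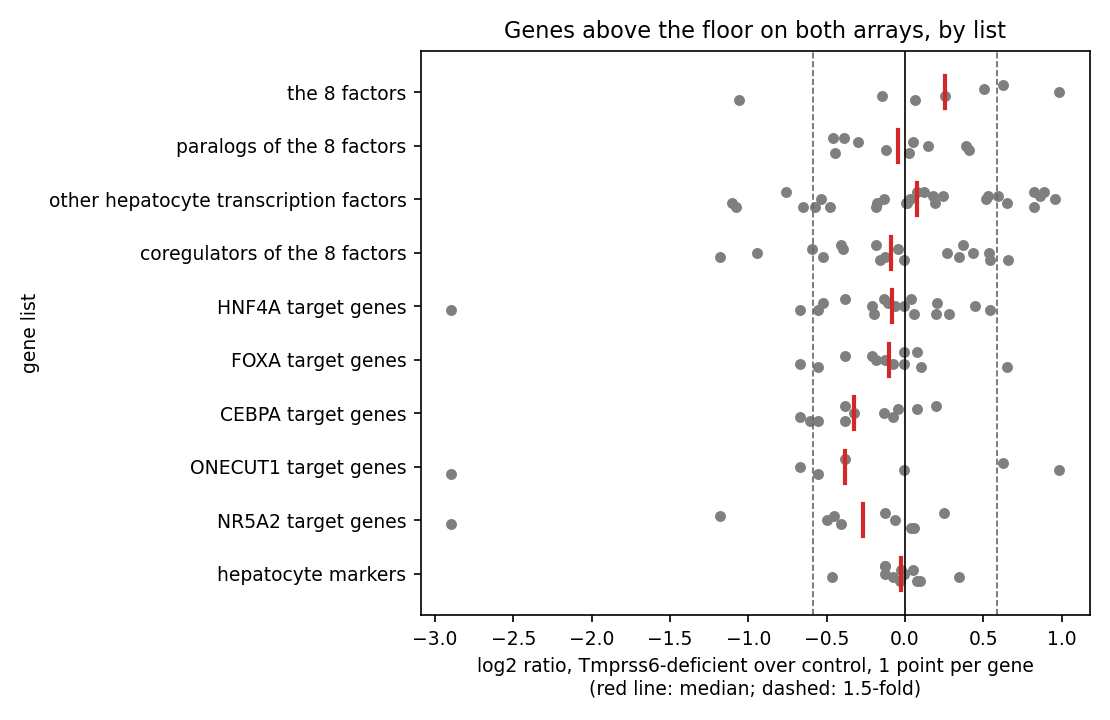
Log2 ratio (Tmprss6-deficient over control) of each gene above the floor on both arrays, 1 point per gene, for the 8 factors and for lists of relatives, partners, targets and hepatocyte markers; the red line is the list's median and dashed lines mark 1.5-fold. The median of the factors was 0.25, while those of the 5 target lists ran from -0.38 to -0.085 and that of hepatocyte markers was -0.028.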

How the data were processed

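The authors deposited an intensity for each probe set on each array, computed with MAS5 according to the submitters' processing notes. The MAS5 version was not given in the sources used here. Here, both arrays were brought to one trimmed mean (2% left out at each end), which left them almost as deposited. Signals under the floor of 17.8 (the 50th percentile of all probe sets but 64 controls) were replaced by it before log2. Ratios are Tmprss6-deficient over control; where only 1 array cleared the floor, the ratio is a bound taken against it. Each gene takes the value of its brightest probe set by mean log2 signal. The spread is the SD of the difference between the log2 ratios of a gene's 2 brightest measured sets, over the square root of 2, by the mean signal of both. No detection calls were used here, and precision is limited by the number of arrays.

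Of 45101 probe sets, 34958 carry 1 gene symbol in the annotation, 932 carry several and stay unnamed, and 9211 carry none here. The factors, lists and target genes were chosen from general knowledge with earlier results of these data known. The motifs were chosen after the windows had been searched with these and some other spellings, which are not reported. Named are all probe sets of the factors, Tmprss6, up to 5 genes of each list with the log2 ratios largest in size and 3 with bounds, and the 3 brightest of each marker list. Cebpb, Cyp8b1, Ass1, Lyve1, Pdpn, Mmrn1, Cpa1, Cpb1, Ctrb1, Cela2a, Cel, and the paralogs below the floor fall outside that rule. They were picked once their values had been seen. With 2 arrays, no gene can be ranked for likeness of pattern. The alternatives tried were equal medians, no scaling, quantile scaling and lowess (span 0.3); a floor at percentile 30 or 70, or used as a pseudocount; averaging a gene's measured sets; plain _at sets; and a 2-fold threshold. Scripts ran in Python 3.11.15 with numpy 2.4.6, pandas 2.3.3 and statsmodels 0.14.6, and were tested on simulated data.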

Additional observations from a re-analysis of the deposited data

How the results depend on the processing

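Signs of the brightest-set log2 ratios of Hnf4a, Foxa1, Foxa2, Foxa3, Cebpa and Nr5a2 stayed the same under each alternative that measured them (plain _at sets leave out Foxa3); Prox1 changed sign with the mean of its measured sets (0.78). With equal medians, 1 factor in place of 2 was higher by 1.5-fold or more, since Hnf4a fell to 0.56. With the floor at the 30th percentile, 2 genes and 2 probe sets were lower, Onecut1 then being measured at -0.67. With the mean of measured sets, 0 genes were lower, since Nr5a2 moved to -0.18, while 3 were higher, Prox1 joining them, and Hnf4a was at 1.04. With plain probe sets only, 5 sets were higher, as fewer sets were counted, and Hnf4a was at 1.18. At 2-fold, 4 probe sets and 0 genes were higher. The median of the factors ran from 0.16 (plain probe sets, or the floor at the 30th percentile) to 0.51 (mean of measured sets). Medians of the HNF4A and FOXA target lists crossed 0, from -0.15 to 0.021 and from -0.18 to 0.030, while those of the CEBPA, ONECUT1 and NR5A2 lists stayed below it. No paired analysis was possible because each group has 1 array. The floor limits what can be said of Onecut1 and of the fourth Nr5a2 set.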

Other observations

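The floor is the median of all probe sets but controls, and 10243 of all 18193 named genes cleared it on both arrays. Factors of other endoderm lineages and genes of the fetal hepatocyte were read beside that share. Of 19 such lineage factors with a probe set, 12 never cleared the floor, and the 4 that did so on both arrays lay within 1.5-fold. Sox4, a factor of biliary and pancreatic progenitors, cleared the floor in the Tmprss6-deficient liver alone on its brightest set (3.30 and 40.5), at least 2.28-fold higher, while the set that cleared it on both arrays was lower. Ptf1a, an acinar factor, read 13.7 and 23.3, and Pax6, an endocrine one, 21.0 and 16.7. The 4 measured on both arrays were Sox17, an early endoderm factor (36.1 and 25.2), Hes1, the Notch target (50.7 and 70.3), and the epithelial factors Grhl2 (a log2 ratio of -0.098) and Elf3 (32.2 and 31.7). Of 9 fetal hepatocyte genes, 5 never cleared the floor and Igf2bp3 was the only one to do so on both arrays (75.8 and 84.3). Igf2, the fetal growth factor gene, cleared the floor in the Tmprss6-deficient liver alone (15.2 and 28.9), as did Hmga2, a chromatin protein gene of growing tissue (8.50 and 19.5). Afp went the other way and cleared the floor in the control alone (20.9 and 9.60).

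Of all genes above the floor on both arrays, 7.51% passed 1.5-fold upward and 8.42% downward. At mean signals from the floor to 64 these shares were 12.5% and 13.1%. Among cells other than hepatocytes, Kupffer cell markers had a median log2 ratio of -0.53 (9 genes), with 1 past 1.5-fold upward and 3 downward. Their summed signals were 3874 in control and 2731 in Tmprss6-deficient liver. Their brightest markers were Csf1r, the macrophage growth factor receptor (1174 and 883), Clec4f, a Kupffer cell lectin (634 and 361), and Cd5l (487 and 403). Endothelial markers (10 genes) had a median of 0.13, with 2 past 1.5-fold upward and 2 downward, and of -0.48 with plain probe sets only. The brightest were the sinusoidal lectin gene Clec4g (517 and 261), the scavenger receptor gene Stab2 (324.5 and 357) and Eng, endoglin (318.5 and 356.5). Stellate cell markers (9 genes) had a median of 0.20, and each lay within 1.5-fold, the brightest being Dcn, decorin (1221 and 1587), Rgs5 (787 and 669) and Colec11 (607 and 779). Blood cell markers (5 genes) had a median of -0.42, with 0 past 1.5-fold upward and 2 downward, and of 0.062 with plain probe sets only. The brightest were the erythroid enzyme gene Alas2 (593 and 232), Ptprc, which encodes CD45 (152 and 97.5), and S100a8 (60.2 and 45.1). The part of these cells in the values of the factors was not tested.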
